A study of Homo sapiens with 54 samples.

Results

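A2M, A2ML1, SERPINA1, SERPINA3, SERPINB2, SERPINB5, SERPINE2, SLPI and PI3 encode protease inhibitors or members of their families, and they are 9 of the 27470 genes in the deposited table of MDA-MB-468 and SUM1315 triple negative breast cancer (TNBC) cells. They were taken by symbol, from a list chosen by the adjusted read counts of A2M in olaparib resistant (OlaR) against parental MDA-MB-468 cells, with the other genes put beside A2M. OlaR against parental MDA-MB-468 cells is therefore described without a test for these genes. All other comparisons, and every comparison in SUM1315 cells, were tested.

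A2M (alpha-2-macroglobulin) is a large secreted inhibitor that closes around proteases of all classes after they cut its bait region, and the complex is cleared through the receptor LRP1. Serpins that act as inhibitors offer a reactive loop to a serine protease, which is trapped on the loop once it has cut it. Not every serpin is such an inhibitor. SLPI and PI3 (elafin) are small inhibitors with a whey acidic protein fold that plug the active site of neutrophil elastase, and both are secreted by epithelia, including those of the breast.

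Reads came from transcript 3′ ends in 54 RNA libraries, 27 of each line, in 18 conditions with 3 libraries each. MDA-MB-468 is wild type for BRCA1 and SUM1315 carries a BRCA1 mutation, and the question of the study was how resistance to the PARP inhibitor olaparib bears on the response to cisplatin (CDDP). Parental cells were untreated, or treated overnight with olaparib (3 µM in MDA-MB-468, 8 µM in SUM1315), with CDDP (1 or 2.5 µM in MDA-MB-468, 2 or 4 µM in SUM1315), or with olaparib and CDDP at either dose. OlaR cells of each line, derived by exposure to rising olaparib, were kept in olaparib (15 µM in MDA-MB-468, 25 µM in SUM1315) and were left so or given CDDP at the same doses. Every OlaR library therefore comes from cells in olaparib, at a higher dose and for longer than the olaparib-treated parental cells. Resistance, the dose and the time in olaparib cannot be told apart. The sources used here do not say whether the OlaR cells of a line are a clone or a pool. They do not say either whether replicates were separate cultures, so that p-values measure only the spread between these libraries.

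Values are adjusted read counts: reads per gene that were scaled to a common library size of 5585170, so that a value of 10 stands for about 10 reads in a library of that size. The whole reads behind them were recovered and numbered 2070301 to 9268162 a library, with fewer in OlaR (2070301 to 4676284) than in parental MDA-MB-468 libraries (5574767 to 9268162), and fewer in OlaR (3446613 to 4665505) than in parental SUM1315 libraries (4977284 to 7540920). Reads from 3′ ends allow each gene to be compared between conditions, and no level is compared between genes here. The 2 lines were fitted apart and not tested against each other, because libraries were sequenced in batches of 27 and the sources do not say which shared a batch. A batch difference between OlaR and parental libraries of a line, if there was any, could likewise not be told apart from resistance.

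The 3 untreated SUM1315 libraries stood apart. Each had a read for 17086 to 17637 genes, against 14409 to 16219 in the other SUM1315 libraries, and 633 genes had more reads in all 3 of them than in any other SUM1315 library. Of these, 116 genes had at most 10 reads in every library, while each other condition of that line had at most 3 such genes. Comparisons with untreated SUM1315 cells rest on these libraries. The fold changes between treated conditions do not, but their p-values come from a fit whose spread and filter include these libraries.

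MDA-MB-468 libraries carried the epithelial markers KRT19 (9303 to 17657 adjusted read counts) and EPCAM (2631 to 3793). KRT8, KRT18, CDH1 and CLDN4 were at 447 or more in each library of that line, and KRT5 was at 247 to 3760. KRT14 was low there, at 2.03 to 21.8. SUM1315 libraries carried the mesenchymal marker VIM (7929 to 13246), while KRT19 stayed at or below 4.56, EPCAM at or below 4.61 and CDH1 at or below 3.90. Not all epithelial markers were near 0 in SUM1315. KRT18 was at 231 to 598 and KRT8 at 17.7 to 154, while CLDN4, KRT5 and KRT14 reached 14.8, 28.4 and 32.1. The hepatocyte markers ALB and TTR, which would come with liver cells that make A2M and SERPINA1, were at 0 in all MDA-MB-468 libraries and in all OlaR libraries of both lines, and reached 3.08 and 6.13 in parental SUM1315 libraries, where the sum with APOA1 was 0 to 11.3. In MDA-MB-468, APOA1 reached 3.16 (at most 4 reads) in parental libraries and was at 0 in all OlaR libraries. The estrogen receptor gene ESR1 was detected in MDA-MB-468 (24.9 to 221), and the sum of ESR1, PGR and ERBB2 ran from 133 to 232 in its OlaR libraries against 39.3 to 109 in its parental libraries. Over all libraries of that line ERBB2 was at 5.33 to 59.2 and PGR had at most 1 read.

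In each line 6 of the 9 genes reached a value of 10 in 3 or more libraries and entered the fit. These were A2M, SERPINA3, SERPINB5, SERPINE2, SLPI and PI3 among 13012 genes in MDA-MB-468, and SERPINA1, SERPINB2, SERPINB5, SERPINE2, SLPI and PI3 among 13133 genes in SUM1315. A2M and SERPINE2 in MDA-MB-468 and SERPINB2 in SUM1315 passed only through their OlaR libraries, so for them a difference between OlaR and parental cells was built into passing.

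**Figure D1:**
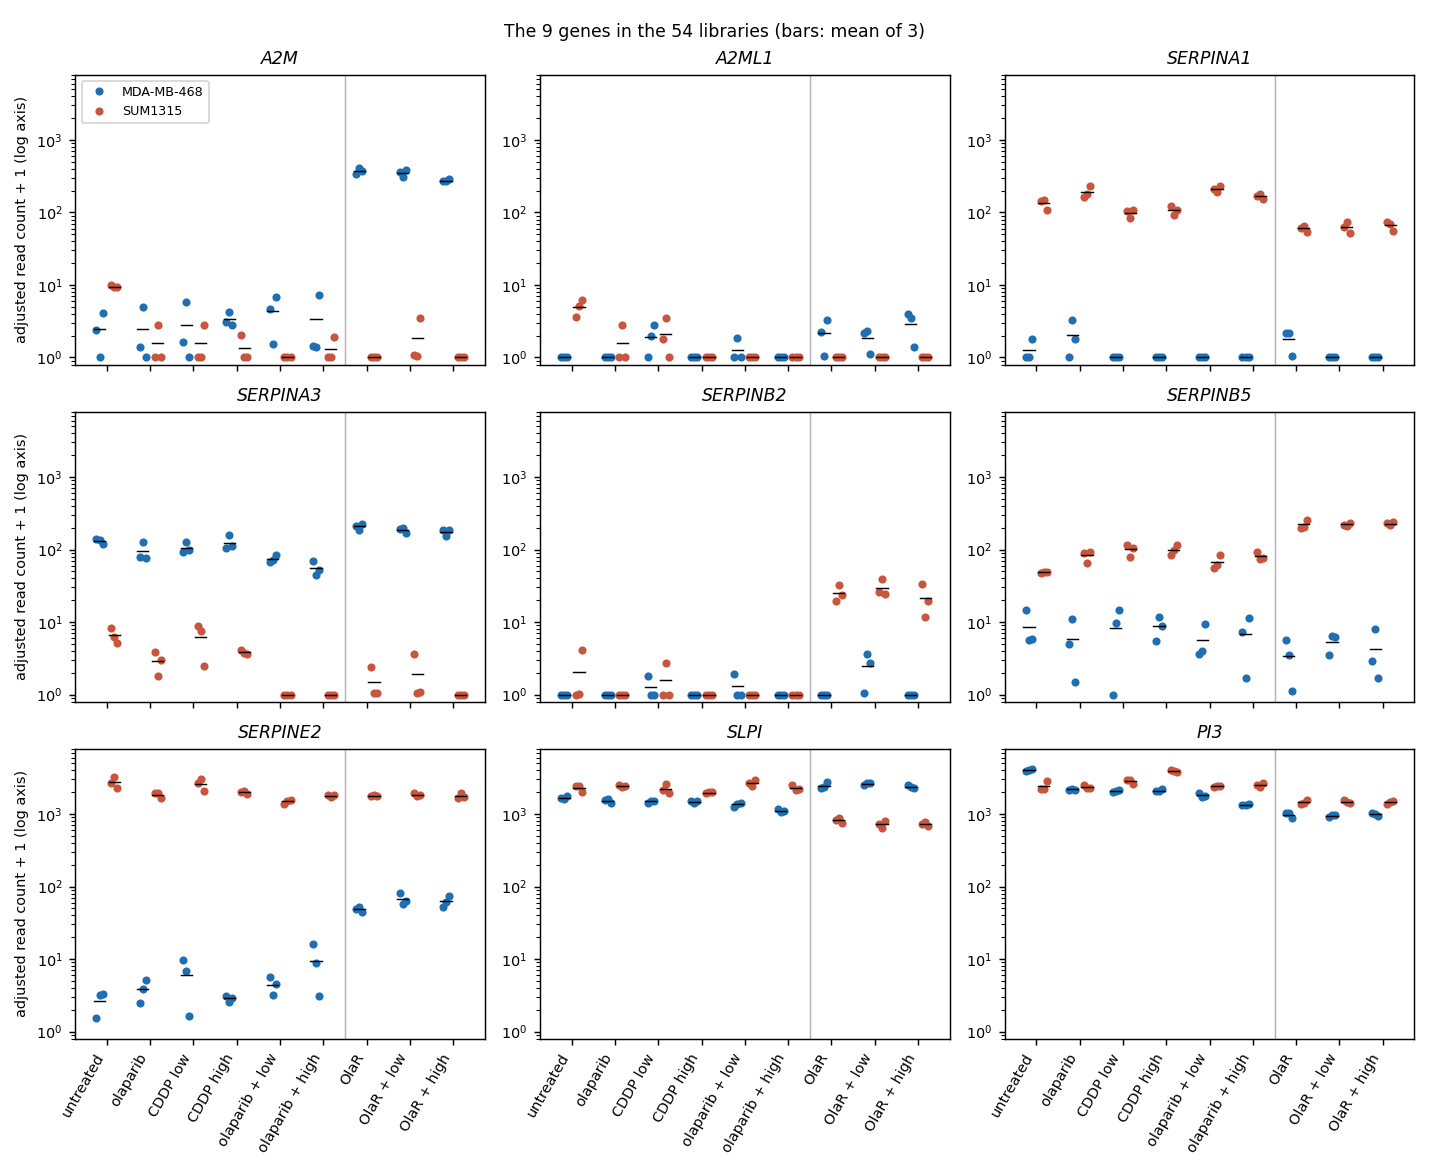
Adjusted read count plus 1 (log axis) of the 9 genes in each of the 54 libraries, by condition (9 in each line, the OlaR conditions right of the vertical line). Points are libraries and bars are means of 3, and A2M of MDA-MB-468 is seen at 267 to 407 in its 9 OlaR libraries and at 6.22 or less in its 18 parental libraries.

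SERPINE2 in MDA-MB-468 and SERPINB2 in SUM1315 went from few or no reads in parental cells to reads in every OlaR library, and the sequences before their start sites are shown for this reason. RefSeq promoter entries (250 bases before to 50 after the start, GRCh38.p14) were found for 6 of the 9 genes and not for A2M, SLPI and PI3. Both windows lie inside the gene spans given below, since RefSeq places these start sites downstream of the outermost GENCODE ends. Capitals mark CCAAT or its reverse ATTGG in SERPINE2 and TATAAA in SERPINB2.
SERPINE2, chr2:224031429-224031728, minus strand: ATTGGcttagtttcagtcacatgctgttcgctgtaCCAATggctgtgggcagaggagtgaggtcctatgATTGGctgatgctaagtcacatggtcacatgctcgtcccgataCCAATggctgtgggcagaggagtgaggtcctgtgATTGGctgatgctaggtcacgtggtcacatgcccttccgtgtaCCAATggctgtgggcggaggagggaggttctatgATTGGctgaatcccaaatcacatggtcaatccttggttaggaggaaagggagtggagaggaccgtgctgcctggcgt
SERPINB2, chr18:63887455-63887754, plus strand: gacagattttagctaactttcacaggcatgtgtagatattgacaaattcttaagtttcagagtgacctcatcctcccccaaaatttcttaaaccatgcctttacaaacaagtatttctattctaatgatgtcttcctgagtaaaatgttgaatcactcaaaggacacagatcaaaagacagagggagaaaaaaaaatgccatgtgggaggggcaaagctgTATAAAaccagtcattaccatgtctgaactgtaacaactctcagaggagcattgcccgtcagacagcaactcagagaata

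The SERPINE2 window held CCAAT or ATTGG 7 times, in alternating orientation, at positions -250, -215, -181, -138, -104, -61 and -27 from the start. Of all 35116 promoters, 34.6% held CCAAT at least once on either strand and 0.0228% (8 promoters) held it at least 7 times. The window of SERPINB2 held TATAAA at -30 and that of A2ML1 at -31, which 11.5% of all promoters held on either strand. The letters of STAT (TTCNNNGAA), AP-1 (TGAGTCA), NF-kB, C/EBP (TTGCNNAA) and CRE (TGACGTCA) sites were searched on both strands and were in none of the 6 windows. They were in 7.66%, 4.95%, 1.91%, 10.5% and 1.85% of all promoters. CCAAT and TATAAA were added after the sequences had been seen, and matches are descriptions of the letters only.

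A2M, on chromosome 12 (GRCh38, 9067664 to 9116229, minus strand, 36 exons), was near 0 in parental MDA-MB-468 cells and among the readily detected genes in their OlaR counterparts. In untreated cells the adjusted read counts were 1.36, 0 and 3.17 (2, 0 and 4 reads), and in olaparib-treated cells they were 0.379, 3.96 and 0 (1, 5 and 0 reads). Over all 18 parental libraries the highest value was 6.22, and no library had over 9 reads. In OlaR cells the values were 336, 407 and 370, with a mean of 371 ± 35.1 (SD, n = 3). All 9 OlaR libraries were far above all 18 parental libraries, with 111 to 332 reads each.

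Over 3 libraries each, OlaR cells had 918 A2M reads and olaparib-treated parental cells had 6, which at their depths is a ratio of 269 with a 95% counting interval of 123 to 735. With CDDP in both groups the ratio was 102 (60.6 to 188) at 1 µM and 125 (65.5 to 276) at 2.5 µM, where 7 of the 9 parental reads lay in replicate 3. These intervals, and those below, cover counting error only. On the scale of log2 of the adjusted read count plus 1, the differences were 7.61, 6.60 and 6.82, and the last was 7.59 without that replicate. In bulk RNA, more cells with A2M and more A2M RNA per cell cannot be told apart.

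CDDP left A2M detected in OlaR MDA-MB-468 cells. The values were 356.5, 312 and 391 at 1 µM CDDP (353 ± 39.5, SD, n = 3), overlapping those without CDDP. At 2.5 µM they were 267, 269.8 and 289 (275 ± 12.04, SD, n = 3), and every library was below every OlaR library without CDDP. In limma with Benjamini-Hochberg adjustment over all genes, this difference did not pass (log2 fold change -0.43, 95% interval -1.59 to 0.74, adjusted p = 0.677), with a spread shared with the parental libraries, where A2M had 0 to 9 reads. It passed when only the 2 OlaR conditions were fitted (log2 fold change -0.43, limma adjusted p = 0.00671), and with limma voom on the recovered reads (-0.43, adjusted p = 0.0168). The call thus depends on the fit, and the OlaR libraries it is measured from are among those by which A2M was chosen.

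In the other line A2M stayed low throughout. Untreated SUM1315 libraries had 10, 8 and 8 reads (adjusted read counts of 9.0, 8.29 and 8.28), and no other library of that line had over 2. These untreated libraries were higher than all the rest without overlap. A2M was 1 of the 116 genes of few reads that marked these libraries, in which the leukocyte markers PTPRC and CD68 had 3, 4 and 3 and 14, 8 and 11 reads. The hepatocyte markers ALB, TTR and APOA1 had 0, 3 and 1, 0, 0 and 6, and 0, 2 and 4 reads in them. PTPRC, CD68 and APOA1 reached more reads in other SUM1315 libraries, up to 8, 17 and 5. ALB and TTR had at most 3 and 6 reads in any library of the line. The part of these markers in the A2M reads was not tested. OlaR SUM1315 cells without CDDP had no A2M read in any of 3 libraries.

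**Figure D2:**
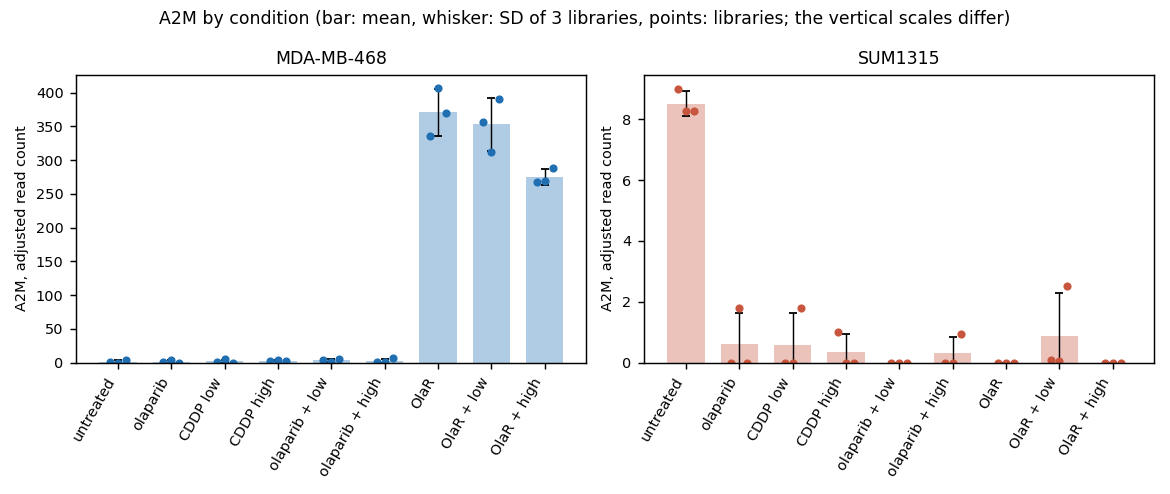
A2M in the 9 conditions of each line, as adjusted read counts on linear axes that differ between the panels. Bars are means, whiskers the SD of 3 libraries and points the libraries: in MDA-MB-468 only the 3 OlaR conditions (275 to 371 on average) stand clear of 0, and in SUM1315 only untreated cells exceed 2.51.

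A2ML1, the relative of A2M made in skin, lies 181 kb from A2M (chromosome 12, 8822621 to 8887001, plus strand). It had 0 to 2 reads in every MDA-MB-468 library. In SUM1315 it had 3, 4 and 5 reads in untreated libraries, at most 3 in olaparib-treated or 2 µM CDDP-treated libraries and none in the other 18 libraries. A2ML1 was thus too low to test in either line.

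The genes around A2M were also read. The table held 16 genes within 500 kb, and in MDA-MB-468 4 of them passed the filter, of which 3 were higher in all OlaR than in all olaparib-treated libraries; of all genes tested, 26.3% were. RIMKLB (chromosome 12, 8681600 to 8783095), which encodes an enzyme that adds glutamate to other molecules, was at 109 ± 8.14 against 0 in all 3 olaparib-treated libraries. The lymphocyte receptor gene KLRG1, 56.9 kb from A2M, was at 17.8 ± 5.70 against 0.926 ± 1.01, and M6PR, a sorting receptor for lysosomal enzymes, at 132 ± 8.54 against 102 ± 8.89 (SD, n = 3 in each group). RIMKLB and KLRG1 may have passed the filter only through their OlaR libraries, in which case being higher there was built in. The same comparison chose A2M, so nothing is read from the count of neighbours.

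The antisense gene A2M-AS1 (9065163 to 9068689) overlaps the last exon of A2M (9067708 to 9067839), and it was at 10.5 ± 6.11 in OlaR and 0.218 ± 0.377 in olaparib-treated MDA-MB-468 cells (SD, n = 3). The strand setting of the counting is not given in the sources used here, so reads of A2M and A2M-AS1 cannot be fully told apart. A2M-AS1 was named for this overlap after its values were seen. In SUM1315 it had no read in these conditions, and RIMKLB rose in OlaR cells there as well (62.5 ± 6.52 against 23.9 ± 3.87, SD, n = 3, log2 fold change 1.36, limma adjusted p = 0.00112).

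**Figure D3:**
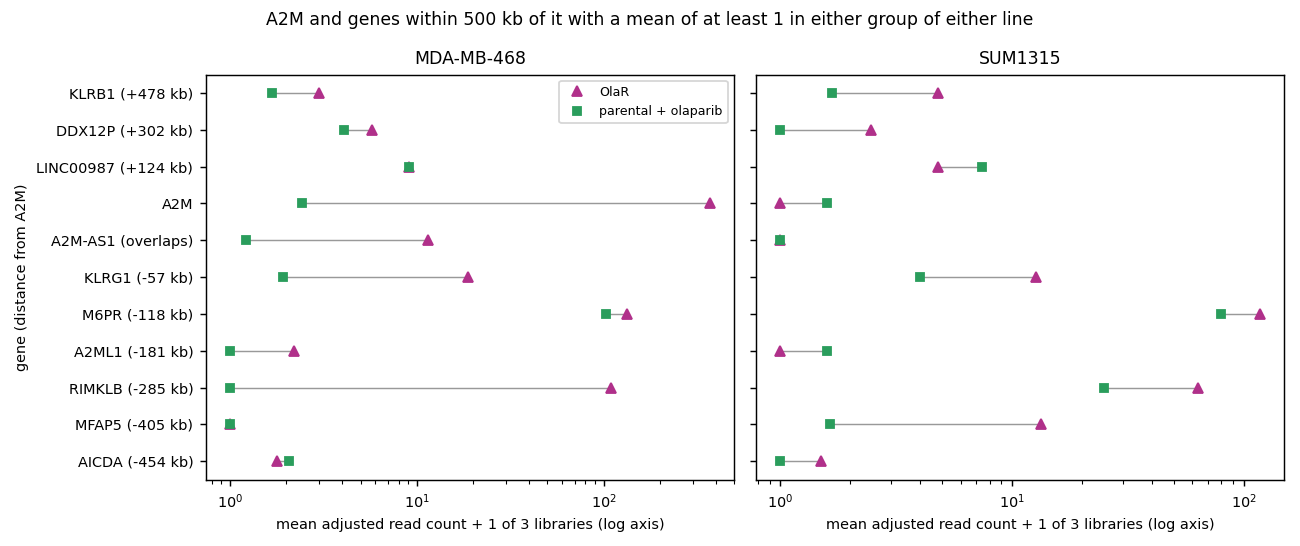
A2M and the genes within 500 kb with a mean of at least 1, ordered by distance from A2M in kb, in OlaR cells (triangles) and olaparib-treated parental cells (squares) of each line. The horizontal log axis is the mean adjusted read count plus 1 of 3 libraries: A2M spans the widest gap in MDA-MB-468 (371 against 1.45), with RIMKLB (109 against 0) next.

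Of the serpins, SERPINE2 (protease nexin-1, an inhibitor of thrombin and plasminogen activators, chromosome 2, 223975045 to 224039318) was the other gene that stayed low in all parental MDA-MB-468 cells. Olaparib-treated cells had 1.48, 2.80 and 4.15 (3, 4 and 5 reads), and the highest parental library, with olaparib and 2.5 µM CDDP, reached 14.9. OlaR cells had 47.8, 51.3 and 43.9 without CDDP. With 1 µM CDDP the mean was 66.2 ± 11.7 and with 2.5 µM it was 62.1 ± 10.96 (SD, n = 3). The 9 OlaR libraries, at 43.9 to 79.4, were all above the 18 parental libraries.

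The ratio of SERPINE2 reads between OlaR and olaparib-treated MDA-MB-468 cells was 17.3 (95% counting interval 9.53 to 34.4), and 19.5 and 7.18 at the lower and higher CDDP dose. SERPINE2 with olaparib and 2.5 µM CDDP varied between libraries, with 20, 12 and 3 reads, and its difference from 2.5 µM CDDP alone missed the threshold (log2 fold change 1.41, 95% interval 0.34 to 2.48, limma adjusted p = 0.0747).

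SUM1315 cells, by contrast, had SERPINE2 values of 1387 to 3219 in the parental and 1639 to 1965 in the OlaR libraries. Untreated libraries were at 2720, 3219 and 2319 (2753 ± 451, SD, n = 3). SERPINE2 fell with olaparib to 1850 ± 146 (log2 fold change -0.56, limma adjusted p = 0.000128) and with 4 µM CDDP to 2000 ± 103 (-0.45, limma adjusted p = 0.00125). OlaR cells, at 1799 ± 31.1, did not differ detectably from olaparib-treated cells (-0.04, 95% interval -0.26 to 0.19, limma adjusted p = 0.81).

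SERPINA3 (alpha-1-antichymotrypsin, an acute phase inhibitor of cathepsin G, chromosome 14, 94612384 to 94624055) was detected in every MDA-MB-468 library. Untreated cells had 140.5, 136 and 118, and olaparib-treated cells 78.0, 127 and 75.6, so that these groups overlapped. In OlaR cells it was at 210.2, 186 and 226, above the olaparib-treated libraries without overlap and at a pooled read ratio of 2.23 (95% counting interval 1.95 to 2.54). That interval leaves out the spread between libraries. The ratio was 2.53 at 1 µM and 3.13 at 2.5 µM CDDP. The OlaR libraries (152 to 226 in all) and parental libraries (43.7 to 157 in all) overlapped only through 1 library with 2.5 µM CDDP.

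Among parental MDA-MB-468 cells the lowest SERPINA3 values were those with both drugs. They were 68.8, 43.7 and 50.7 with olaparib and 2.5 µM CDDP, against 104, 157 and 110.5 with 2.5 µM CDDP alone. SERPINA3 fell by 1.17 on the log2 scale between these conditions (limma adjusted p = 2.12e-06), and by 0.75 against olaparib alone (limma adjusted p = 0.000828). It also fell with olaparib alone (log2 fold change -0.53, limma adjusted p = 0.0240), a call that was lost when any of 4 of the 6 libraries was left out. SUM1315 cells had 0 to 9 reads of SERPINA3, and none in the 6 libraries with olaparib and CDDP.

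SERPINA1 (alpha-1-antitrypsin, the main plasma inhibitor of neutrophil elastase, chromosome 14, 94376747 to 94390693) was found in SUM1315 and had at most 3 reads in any MDA-MB-468 library. Untreated SUM1315 cells had 141, 148 and 108, and olaparib-treated cells 165, 179.5 and 234. The gene rose with olaparib (log2 fold change 0.54, limma adjusted p = 0.0213), a call lost without untreated replicate 3 or olaparib-treated replicate 3. It was also higher with olaparib and 4 µM CDDP (168 ± 14.4) than with 4 µM CDDP alone (107 ± 14.5, SD, n = 3; log2 fold change 0.65, limma adjusted p = 0.0155), a call lost without replicate 2 of either condition.

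OlaR SUM1315 cells had less SERPINA1 than any parental cells, at 59.2, 64.8 and 53.7. All 9 OlaR libraries (51.3 to 74.0) lay below all 18 parental libraries (83.5 to 234). Against olaparib-treated cells at the same CDDP dose SERPINA1 fell by 1.67 without CDDP, by 1.76 at 2 µM and by 1.35 at 4 µM on the log2 scale (limma adjusted p of 4.76e-09, 1.88e-09 and 3.18e-07). SERPINA1 was thus higher in parental cells given olaparib overnight than in untreated cells, and lower in cells kept in olaparib.

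SERPINB2 (plasminogen activator inhibitor type 2, chromosome 18, 63871692 to 63903888) had no read in 16 of the 18 parental SUM1315 libraries, and 3 and 2 reads in the others. OlaR cells had 11, 19 and 14 reads without CDDP, 16, 30 and 16 with 2 µM and 27, 7 and 11 with 4 µM. As adjusted read counts these were 18.3, 31.1 and 22.7, then 24.6, 37.6 and 23.0, then 32.4, 10.7 and 18.4. All OlaR libraries were above all parental libraries.

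Since the olaparib-treated SUM1315 libraries were all at 0, the fold of SERPINB2 is a lower bound, taken against 3 reads over the group. It was at least 25.8-fold higher in OlaR cells without CDDP, 28.2-fold with 2 µM and 23.7-fold with 4 µM. No p-value is given, since SERPINB2 entered the fit only through the OlaR libraries. MDA-MB-468 cells had 0 to 2 reads of SERPINB2 in every library.

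SERPINB5 (maspin, a serpin first described in normal mammary epithelium, chromosome 18, 63476958 to 63505085) was lowest in untreated SUM1315 cells, at 46.7, 47.6 and 47.6. It rose with olaparib to 82.6 ± 15.4 (log2 fold change 0.77, limma adjusted p = 0.00129), with 2 µM CDDP to 99.4 ± 19.1 (1.04, 4.41e-05) and with 4 µM to 98.9 ± 15.1 (SD, n = 3; 1.04, 2.76e-05). The untreated libraries were below all others. In OlaR cells SERPINB5 was at 199.5, 206 and 257, above every parental library, the highest of which was 116. It rose by 1.42 against olaparib-treated cells, and by 1.75 and 1.51 at the lower and higher CDDP dose (limma adjusted p of 1.44e-07, 2.41e-09 and 4.91e-08).

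MDA-MB-468 cells had little SERPINB5, with 0 to 18 reads in a library. Adjusted read counts were 13.5 or less in the parental and 7.06 or less in the OlaR libraries, and these ranges overlapped. Neither drug moved SERPINB5 detectably in these cells, although the interval for olaparib (-2.45 to 0.77 on the log2 scale) allows large changes at this depth.

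SLPI (secretory leukocyte protease inhibitor, chromosome 20, 45252239 to 45254564) was at high values in both lines, and OlaR libraries lay on opposite sides of the parental libraries in the 2 lines. In MDA-MB-468 it was at 1646, 1609 and 1777 in untreated cells, 1554, 1625 and 1404 with olaparib and 2304, 2339 and 2755 in OlaR cells. In SUM1315 it was at 2457, 2440 and 2014 in untreated cells, 2552, 2349 and 2444 with olaparib and 839, 871 and 751 in OlaR cells. The 9 OlaR libraries were above all parental libraries in MDA-MB-468 (2259 to 2755 against 1064 to 1777) and below them in SUM1315 (637 to 871 against 1939 to 2908).

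SLPI reads in OlaR MDA-MB-468 cells were 1.61 times those with olaparib (95% counting interval 1.55 to 1.66), and 1.92 and 2.18 times at the lower and higher CDDP dose. The interval covers counting error only and leaves out the spread between libraries. In SUM1315 cells SLPI fell in OlaR cells by 1.58, 1.89 and 1.62 on the log2 scale (limma adjusted p of 4.22e-14, 4.30e-16 and 2.38e-14). In parental MDA-MB-468 cells SLPI fell with 2.5 µM CDDP (log2 fold change -0.20, limma adjusted p = 0.0181, a call lost without untreated replicate 3 or without replicate 2 of that dose) and by 0.47 when 2.5 µM CDDP was added to olaparib (limma adjusted p = 7.46e-08). No treatment of parental SUM1315 cells changed it past the threshold, and the interval that reached farthest from 0, for 4 µM CDDP, ran from -0.42 to 0.00.

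PI3 (elafin, chromosome 20, 45174902 to 45176544) fell with every overnight treatment of parental MDA-MB-468 cells. Untreated cells had 3987, 4073 and 4167, and every treated library had less. It fell with olaparib to 2178, 2225 and 2178 (log2 fold change -0.89, limma adjusted p = 1.13e-17), with 1 µM CDDP to 2085 ± 47.7 (-0.97, 9.72e-19) and with 2.5 µM to 2110 ± 63.4 (-0.95, 1.16e-18). With both drugs it was lower again, at 1808 ± 120 for 1 µM and at 1349, 1323 and 1367 for 2.5 µM (SD, n = 3; -0.28 and -0.70 against olaparib alone, limma adjusted p of 0.000999 and 3.43e-14). The first of these did not pass when only its own 2 conditions were fitted (limma adjusted p = 0.0547).

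OlaR MDA-MB-468 cells had the lowest PI3 values of the line, at 1024, 1019 and 886 without CDDP, and their 9 libraries (886 to 1033) lay below all 18 parental libraries. The pooled read ratio to olaparib-treated cells was 0.445 (95% counting interval 0.426 to 0.466), against 0.529 with 1 µM and 0.745 with 2.5 µM CDDP in both groups. That interval covers counting error only and leaves out the spread between libraries. In OlaR cells 2.5 µM CDDP gave 993 ± 51.4 (SD, n = 3), with a log2 fold change of 0.03 and a 95% interval of -0.09 to 0.14. The response to 2.5 µM CDDP thus differed between OlaR and olaparib-treated cells, by 0.73 for PI3 (standard error 0.0818, limma adjusted p = 2.20e-09) and by 0.43 for SLPI (standard error 0.0899, limma adjusted p = 0.000532). Of the genes tested, 15.0% passed this test of the difference. In a test added after these values had been seen, the response to 2.5 µM CDDP also differed between parental cells with and without olaparib, by 0.25 for PI3 and -0.27 for SLPI (limma adjusted p of 0.0252 and 0.0253), 2 of the 6 against 20.2% of all genes, with 1 to 3 genes called when single libraries were left out.

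In SUM1315 cells PI3 moved the other way with CDDP. It was at 2242, 2200 and 2855 in untreated cells, 2949, 2904 and 2623 with 2 µM and 3997, 3902 and 3843 with 4 µM. PI3 rose with 4 µM CDDP (log2 fold change 0.70, limma adjusted p = 1.06e-07), when no library overlapped, and with 2 µM (0.22, limma adjusted p = 0.0494), when libraries overlapped and the call was lost without any of 4 of the 6 libraries. Olaparib alone gave 2375 ± 111 (-0.03, 95% interval -0.21 to 0.16), and 4 µM CDDP on top of olaparib gave 2504 ± 156 (SD, n = 3; 0.08, 95% interval -0.11 to 0.26). In the same added test, the change with 4 µM CDDP was lower on top of olaparib than without it, with a difference of -0.62 for PI3 (standard error 0.126, limma adjusted p = 0.000445) and -1.08 for SERPINB5 (standard error 0.262, limma adjusted p = 0.00278), 2 of the 6 tested genes against 21.5% of all genes.

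In OlaR SUM1315 cells PI3 was at 1382, 1410 and 1576, and all 9 OlaR libraries (1359 to 1576) were below all parental ones (2200 to 3997). PI3 fell by 0.71, 0.72 and 0.79 against olaparib-treated cells at the 3 CDDP doses (limma adjusted p of 6.95e-08, 6.02e-08 and 8.87e-09). PI3 was thus the gene of the 9 that was below the parental range in OlaR cells of both lines.

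**Figure D4:**
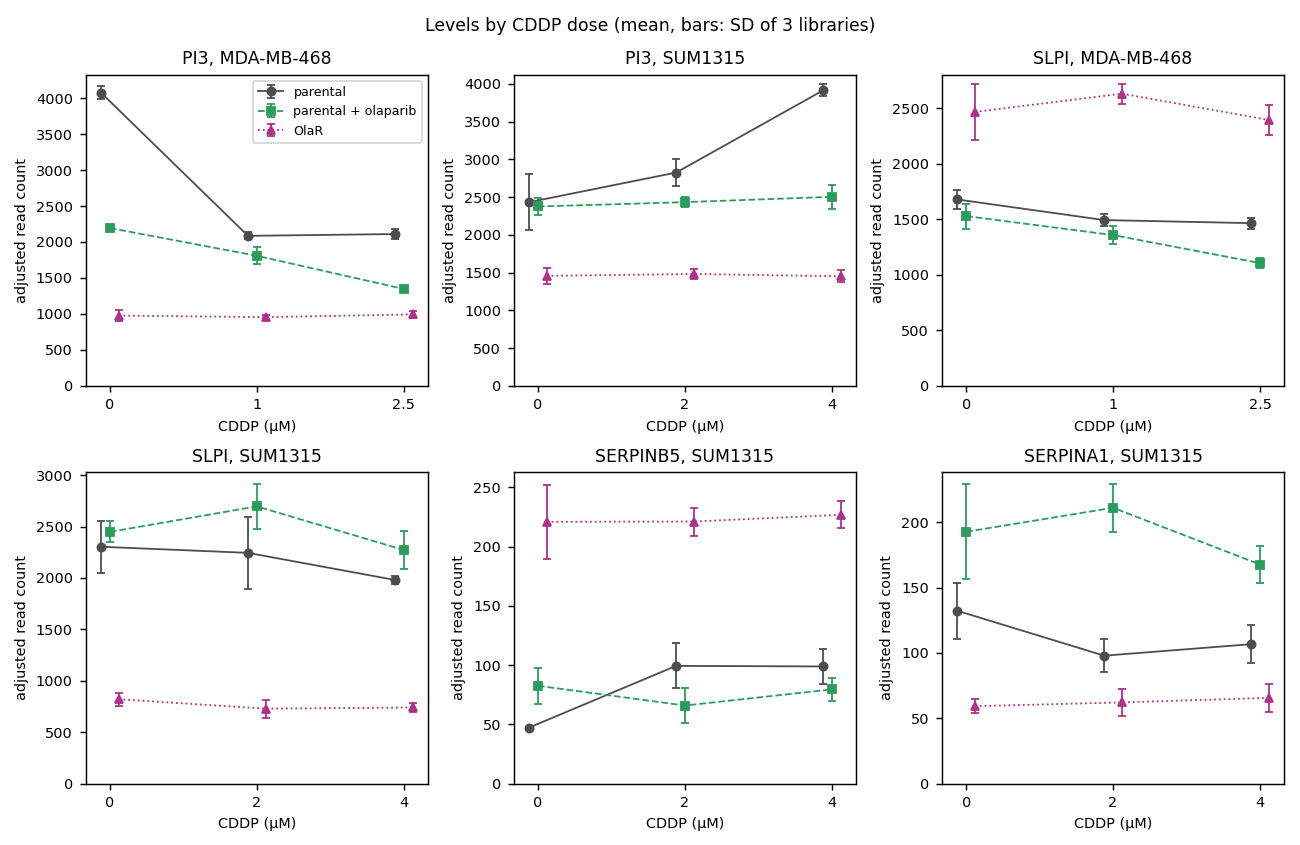
Adjusted read counts of PI3 and SLPI in both lines, and of SERPINB5 and SERPINA1 in SUM1315, against the CDDP dose in µM (doses drawn at equal spacing), for parental cells, parental cells with olaparib and OlaR cells. Points are means and bars the SD of 3 libraries: without olaparib, PI3 of parental MDA-MB-468 cells goes from 4076 to 2110 at 2.5 µM and PI3 of parental SUM1315 cells from 2433 to 3914 at 4 µM, while PI3 of OlaR cells stays between 954 and 993 in MDA-MB-468 and between 1450.1 and 1481 in SUM1315.

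Counted over the 9 genes, in MDA-MB-468 2 of the 6 tested genes changed at an adjusted p at or under 0.05 with olaparib (21.5% of all genes tested passed), both of them lower (9.11%), 1 with 1 µM CDDP (20.0%) and 2 with 2.5 µM CDDP (25.1%). Added to olaparib, 1 µM CDDP changed 1 of the 6 (5.26%) and 2.5 µM changed 3 (23.1%), and olaparib added to 2.5 µM CDDP changed 3 (11.9%). All of these changes in parental MDA-MB-468 cells were decreases, of SERPINA3, SLPI or PI3. SERPINA3 in the last of these was the only 1 with a fold change of at least 2, which 0.438% of all genes reached at that adjusted p.

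In SUM1315, 3 of the 6 changed with olaparib (36.0% of all genes tested), 2 with 2 µM CDDP (33.9%) and 3 with 4 µM CDDP (43.9%), and 2 between olaparib with 4 µM CDDP and 4 µM CDDP alone (12.8%). SERPINB5 reached a fold change of 2 with CDDP at either dose, as did 8.79% of all genes at 2 µM and 15.4% at 4 µM. It was just short of that fold with a pseudocount of 5 (log2 fold change 0.98 at both doses), at 2 µM without replicate 1 or 3 of that dose (down to 0.92) and at 4 µM without replicate 3 of that dose (0.93), while its adjusted p stayed under 0.05 in the fits with a pseudocount of 5. The shares for SUM1315 treatments against untreated cells all rest on the 3 libraries that stood apart.

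CDDP changed none of the 6 in OlaR cells by limma, at either dose in either line. The background was 4.76% of genes at 1 µM and 18.7% at 2.5 µM in MDA-MB-468, and 1.42% at 2 µM and 16.7% at 4 µM in SUM1315. None of the 6 had an unadjusted p under 0.05 in these 4 comparisons, and limma voom called 0, 1, 0 and 0 of them, the 1 being A2M. CDDP on top of olaparib likewise changed none of the 6 in parental SUM1315 cells by limma or by limma voom (3.76% of genes at 2 µM, 8.44% at 4 µM), with 1 unadjusted p under 0.05, that of SERPINE2 at 2 µM, and 0 at 4 µM. In SUM1315 the response to 4 µM CDDP of none of the 6 differed between OlaR and olaparib-treated cells by limma or by limma voom (6.40% of genes; 0 with an unadjusted p under 0.05).

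OlaR against olaparib-treated SUM1315 cells changed 5 of the 6 without CDDP (47.2% of all genes tested), 6 with 2 µM (44.0%) and 5 with 4 µM (44.8%). These counts include SERPINB2, which entered the fit only through OlaR libraries and had to differ. Of the other 5 genes, SERPINA1, SERPINB5 and SLPI had a fold change of at least 2 at each dose, as did 16.6%, 15.5% and 15.9% of all genes. SERPINE2 was the gene called at 2 µM only (log2 fold change 0.31, limma adjusted p = 0.0223), a call lost without replicate 1 of either condition. In MDA-MB-468, where the comparison entered the choice of the genes, 5 of the 6 tested had OlaR and olaparib-treated libraries that did not overlap (56.2% of all genes tested), 5 did at 1 µM (55.7%) and 5 at 2.5 µM (59.5%), and SERPINB5 overlapped in each.

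All 9 OlaR libraries were apart from all 18 parental libraries for 4 of the 6 tested genes in MDA-MB-468 (20.4% of all genes tested) and for 5 of the 6 in SUM1315 (12.7%). These are descriptions, because the comparison chose A2M and because SERPINE2 in MDA-MB-468 and SERPINB2 in SUM1315 entered the fit only through OlaR libraries, so nothing is read from the counts. Higher ones were A2M, SERPINE2 and SLPI in MDA-MB-468, and SERPINB2 and SERPINB5 in SUM1315. Lower ones were PI3 in MDA-MB-468, and SERPINA1, SLPI and PI3 in SUM1315.

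Markers of other cells moved with these differences in SUM1315. The sum of the endothelial markers PECAM1 and VWF was 45.0 to 111 in OlaR and 120.2 to 207 in parental libraries, almost all of it PECAM1, since VWF had at most 2 reads. The sum of COL1A1, COL1A2 and PDGFRB of fibroblasts was 155 to 238 against 459 to 841. Most of it was COL1A1 (132 to 796 over all libraries), with PDGFRB at 9.07 to 87.6 and COL1A2 at 9 reads or fewer. The sum of 5 mesenchymal markers led by VIM was 10201 to 12175 against 12781 to 15734. Their part in the differences of the 6 genes was not tested. In MDA-MB-468 the sum of ESR1, PGR and ERBB2 moved with OlaR, as given above, and its part was not tested either.

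**Figure D5:**
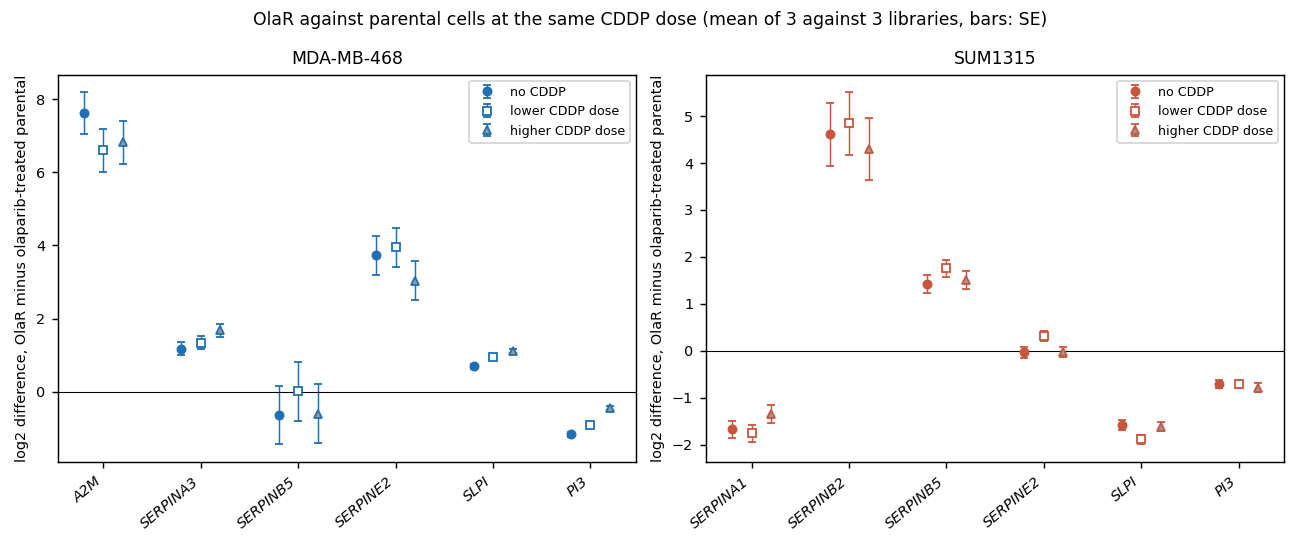
Difference between OlaR and olaparib-treated parental cells in log2 of the adjusted read count plus 1, for the 6 genes that entered the fit in each line, without CDDP and at the lower and the higher dose. Bars are standard errors of the fit (3 against 3 libraries): A2M of MDA-MB-468 is at 6.60 to 7.61, SERPINB2 of SUM1315 at 4.30 to 4.84, and SLPI lies above 0 in MDA-MB-468 and below 0 in SUM1315.

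The rest of the inhibitor families was read from gene lists. Of 30 other serpins, 8 were tested in MDA-MB-468, and in OlaR against olaparib-treated cells 1 rose and 6 fell (median log2 fold change -1.19, against -0.03 over all genes), while 51.5% of all genes passed, 23.6% higher and 27.9% lower. SERPINI1 (neuroserpin, an inhibitor of tissue plasminogen activator) was at 27.5 ± 0.962 against 0.526 ± 0.911 and, like A2M, entered the fit only through OlaR libraries, so that no fold or p is given. SERPINF2 (alpha-2-antiplasmin) was at 4.85 ± 2.2 in OlaR against 77.3 ± 18.9 in olaparib-treated cells (SD, n = 3). SERPINF2 may have entered the fit only through parental libraries, in which case being lower in OlaR cells was built in. No fold or p is therefore given for it, although it is counted among those that fell. In SUM1315, 2 of 11 rose and 7 fell (median -1.23, against -0.05), while 21.6% of all genes were higher and 25.7% lower. SERPINB8, a serpin that acts inside cells, rose from 24.7 ± 9.72 to 60.4 ± 9.36 (1.31, limma adjusted p = 0.000609), and SERPINB4 fell from 108 ± 5.73 to 21.7 ± 2.80 (SD, n = 3; -2.27, limma adjusted p = 9.72e-09).

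Of 37 other protease inhibitors, 17 were tested in each line. In OlaR against olaparib-treated MDA-MB-468 cells 7 rose and 4 fell (median 0.14, with 23.6% of all genes higher and 27.9% lower), and WFDC2, a relative of SLPI, rose from 14.5 ± 3.51 to 333 ± 11.9 (SD, n = 3; log2 fold change 4.46, limma adjusted p = 2.31e-19). In SUM1315 2 rose and 4 fell (median 0.23, with 21.6% and 25.7% of all genes), and TFPI2, an inhibitor of plasmin and other serine proteases, rose from 1695 ± 42.5 to 10119 ± 247 (SD, n = 3; 2.58, limma adjusted p = 1.34e-23). The metalloproteinase inhibitors moved apart in both lines. Against olaparib-treated cells TIMP3 was higher by 1.44 in OlaR MDA-MB-468 and 1.84 in OlaR SUM1315, and TIMP1 was lower by 2.23 and 1.35 (limma adjusted p of 1.13e-10, 9.55e-18, 7.19e-20 and 1.54e-13).

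TIMP3 was also among the inhibitors that fell with the drugs in parental cells. In SUM1315 it was at 13736 ± 235 in untreated cells, 3260 ± 206 with olaparib and 1747 ± 28.9 with 4 µM CDDP (SD, n = 3), and in OlaR cells 4 µM CDDP lowered it from 11689 ± 165 to 5819 ± 229. In MDA-MB-468 olaparib lowered it from 154 ± 6.88 to 67.1 ± 3.89 (SD, n = 3; log2 fold change -1.19). All of these passed the threshold of limma with a fold change of at least 2. The higher TIMP3 of OlaR cells was thus measured against cells in which olaparib had lowered it. Without CDDP, OlaR SUM1315 cells (11689 ± 165) were below untreated cells (13736 ± 235). OlaR MDA-MB-468 cells were at 183 ± 6.55 against 154 ± 6.88 in untreated cells (SD, n = 3). OlaR against untreated cells was not tested.

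Of 42 proteases that the inhibitors act on or that act beside them, 24 were tested in MDA-MB-468, and 13 rose and 3 fell in OlaR against olaparib-treated cells (median 0.26, with 23.6% of all genes higher and 27.9% lower). MMP7 (matrilysin), which cuts serpins as well as matrix, rose from 29.1 ± 7.85 to 4237 ± 172 (SD, n = 3; log2 fold change 7.17, limma adjusted p = 8.87e-35). MMP2, a gelatinase that A2M can trap, was at 35.6 ± 0.806 in OlaR against 5.03 ± 0.854 in olaparib-treated cells. MMP2 may have entered the fit only through OlaR libraries, in which case being higher there was built in. No fold or p is therefore given for it, although it is counted among those that rose. In SUM1315 5 of 17 rose and 6 fell (median -0.11, with 21.6% and 25.7% of all genes). PLAT (tissue plasminogen activator, a target of SERPINB2 and SERPINE2) rose from 1591 ± 82.8 to 3612 ± 87.3 (1.18, limma adjusted p = 7.88e-14), and MMP1 (collagenase) fell from 1165 ± 118 to 187 ± 4.27 (SD, n = 3; -2.63, limma adjusted p = 5.32e-21).

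Receptors that take up inhibitor complexes, and others of the list, went both ways. In OlaR against olaparib-treated cells 2 of 11 rose and 3 fell in MDA-MB-468 (median 0.00, 51.5% of all genes passed), and 5 of 12 rose and 3 fell in SUM1315 (median 0.15, 47.2% of all genes passed). PLAUR, the urokinase receptor, rose by 1.03 in MDA-MB-468 (limma adjusted p = 2.97e-06), where the proteoglycan SDC1 fell by 1.42 (limma adjusted p = 2.62e-25). In SUM1315 VLDLR, a receptor for serpin complexes, fell by 2.31 (limma adjusted p = 6.14e-06). LRP1B, a relative of LRP1, was there at 1.04 ± 1.61 in OlaR against 16.1 ± 6.02 in olaparib-treated cells (SD, n = 3). LRP1B may have entered the fit only through parental libraries, in which case being lower in OlaR cells was built in. No p is therefore given for it, although it is counted among those that fell.

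Of 26 acute phase genes and their regulators, the group in which A2M, SERPINA1 and SERPINA3 are counted in liver, 6 of 12 rose and 1 fell in OlaR MDA-MB-468 cells (median 0.40, with 23.6% and 27.9% of all genes). None changed by a factor of 2 without CDDP. At the lower dose 1 was higher and 1 lower by that factor, and at the higher dose 3 were higher and 0 lower. The shares of all genes at that factor are not given here, so nothing is read from these counts. In SUM1315 7 of 17 rose and 8 fell (median -0.28, with 21.6% and 25.7% of all genes), with LCN2 (lipocalin 2) from 52.0 ± 11.5 to 622 ± 64.9 and IL1B (interleukin 1 beta) from 618 ± 83.9 to 3243 ± 52.4 (SD, n = 3; log2 fold changes of 3.57 and 2.40, limma adjusted p of 2.51e-17 and 2.35e-16).

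Of 22 genes of the cornified envelope, of which elafin is a part in skin, 2 of 7 rose and 4 fell in MDA-MB-468 (median -0.45, 51.5% of all genes passed), and 4 of 5 rose in SUM1315 (median 1.90, 47.2% passed). S100A7 (psoriasin) fell from 657 ± 80.4 to 12.5 ± 4.91 in OlaR MDA-MB-468 cells (log2 fold change -5.67, limma adjusted p = 5.54e-34) and rose from 28.4 ± 8.83 to 204 ± 26.3 in OlaR SUM1315 cells (SD, n = 3; 2.83, limma adjusted p = 1.22e-07). The difference between the lines was not tested.

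Likeness was measured by Pearson's r of log2 values over the 27 libraries of a line, which share the split between OlaR and parental cells and its difference in depth, so that r is a description only. In MDA-MB-468 SDC2 (r = 0.971) and SLITRK1 (0.970) were among the 3 genes most like A2M. Among the 9, SERPINE2 (0.901) and SLPI (0.887) were most like A2M, and PI3 least (-0.797). In SUM1315 SERPINB2 and SLPI ran against each other (r = -0.954), as did SERPINB5 and SLPI (-0.911), and the genes most like them were MET for SERPINB2 (0.973), SLIRP for SERPINB5 (0.963) and CHFR for SLPI (0.987).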

How the data were processed

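For 54 libraries of MDA-MB-468 and SUM1315 cells, RNA was read from transcript 3′ ends (QuantSeq 3′ mRNA FWD, 50-base reads, hg38). Per the labels, CASAVA 1.8.2, FastQC, STAR, HTSeq and edgeR were used, and the labels give no version of the others. The values the authors deposited are a signal, not raw counts: read counts per gene that edgeR adjusted within each condition to a common library size of 5585170, with a common dispersion of 0.0104. A low value therefore carries part of its condition's mean. This adjustment was inverted, and whole reads were recovered for 100% of 1483380 values (relative tolerance 1e-06). Depth per library was 2070301 to 9268162 reads, and counting intervals cover counting error only. The spread between 2 libraries of a condition was 1.60 to 22.1 times that of counting (chi-square per degree of freedom, median 3.23). Counting intervals are therefore too narrow to cover the spread between libraries.

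Genes that reached a value of 10 in 3 or more libraries were tested within each line with limma 3.58.1 (R 4.3.3, trended variance) on log2(value + 1), with 1 mean for each of the 9 conditions and Benjamini-Hochberg adjustment over all genes tested. Fold changes on this scale understate changes of low genes. A gene was called at an adjusted p at or under 0.05, and as changed by a factor of 2 at a log2 fold change of at least 1 besides. The deposited values are not counts, so limma on the log scale was the test. The edgeR and DESeq2 tests planned for the recovered reads were not run; limma voom on those reads was added in their place after the data had been seen. The inversion and the limma fit were each tried on simulated data. For limma the simulated reads were only scaled by library size. That trial therefore cannot show how the adjustment within conditions bears on the fit. Python 3.11.15 (numpy 2.4.6, scipy 1.17.1, pandas 2.3.3, matplotlib 3.10.9) served for the tables and plots.

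Groups were taken from the labels. The labels write some doses in mM, and the dose text for CDDP in MDA-MB-468 differs between 2 and 2.5 µM; the sample labels were followed. The 9 genes and all gene lists were chosen with earlier results of these data known. List genes are named as up to 2 each way with the largest fold among those called, up to 3 genes most like a member by r, and neighbours of A2M within 500 kb by passing the filter. Of 27470 row names, 27 are dates and 2 are repeated. Gene positions are from GENCODE on GRCh38. Some genes that these rules would name are not reported here.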

Additional observations from a re-analysis of the deposited data

Results flagged for a closer look

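The response to the higher CDDP dose differed between OlaR and olaparib-treated MDA-MB-468 cells for PI3 (difference in log2 fold change 0.73, limma adjusted p = 2.20e-09) and SLPI (0.43, limma adjusted p = 0.000532), as tested by an interaction term. The response to the higher CDDP dose also differed between parental cells with and without olaparib, in MDA-MB-468 for PI3 (0.25, limma adjusted p = 0.0252) and SLPI (-0.27, limma adjusted p = 0.0253), 2 of the 6 tested genes against 20.2% of all genes, and in SUM1315 for PI3 (-0.62, limma adjusted p = 0.000445) and SERPINB5 (-1.08, limma adjusted p = 0.00278). The SUM1315 values rest on the untreated libraries that stood apart.

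PI3 moved in opposite directions in every library of the 2 lines with the higher CDDP dose, on average by -0.95 in MDA-MB-468 and 0.69 in SUM1315 on the log2 scale. SLPI did so in 4 comparisons. With olaparib and the higher CDDP dose against that dose alone, the SLPI values were -0.41 in MDA-MB-468 and 0.20 in SUM1315, where the change did not pass (limma adjusted p = 0.243). For OlaR against olaparib-treated cells they were 0.69 and -1.58 without CDDP, 0.95 and -1.89 at the lower dose, and 1.11 and -1.62 at the higher dose. The difference between the lines was not tested, and the doses differ between them.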

How the results depend on the processing

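No called result reversed. The untested difference of SERPINB5 between OlaR and olaparib-treated MDA-MB-468 cells changed sign when single libraries were left out. On the log2 scale it ran from -1.40 to 0.04 without CDDP and from -0.23 to 0.45 at the lower CDDP dose. At the higher dose it ran from -1.42 to -0.03 and kept its sign. Alternatives with edgeR or DESeq2 were not run. With no limit on the fold change, the members called were 2 with olaparib, 1 and 2 with the lower and higher CDDP dose, 1 and 3 for these doses added to olaparib and 3 for olaparib added to the higher dose in MDA-MB-468 (0, 0, 0, 0, 0 and 1 with the limit), and 3, 2, 3 and 2 with olaparib, the lower dose, the higher dose and olaparib added to the higher dose in SUM1315 (0, 1, 1 and 0). With no filter on low values the counts were 2, 3, 3 and 1 for these SUM1315 comparisons, and 1 in MDA-MB-468 and 4 in SUM1315 for the test of CDDP by olaparib (2 and 2 with the filter). With a pseudocount of 5, SUM1315 had 0 at either CDDP dose. The cause was not tested.

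Leaving out each library in turn gave 0 to 1 members in MDA-MB-468 for the lower CDDP dose (changed without its replicate 3) and the higher dose added to olaparib (without replicate 3 of both drugs), 0 to 2 for olaparib added to the higher dose (0 without replicate 2 of CDDP alone, 2 without replicate 3 of both drugs) and 1 to 3 for CDDP by olaparib (changed without any of 9 of the 12 libraries). In SUM1315 it gave 0 to 1 for either dose, where SERPINB5 fell under a factor of 2 (down to 0.92 without replicate 1 or 3 of the lower dose, 0.93 without replicate 3 of the higher), and 2 to 3 for CDDP by olaparib.

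Same-numbered libraries did not deviate together (correlations of -0.047 to 0.043 in MDA-MB-468 and -0.098 to 0.164 in SUM1315), so numbers do not pair the samples. With the replicate block, PI3 at the lower CDDP dose in SUM1315 lost its call (limma adjusted p = 0.0528), SERPINE2 in CDDP by olaparib in SUM1315 gained 1 (limma adjusted p = 0.0410). The first takes the members past the adjusted p alone at that dose from 2 to 1, and no count past both thresholds moved by over 1.5 times. A2M in MDA-MB-468 OlaR against olaparib-treated cells ran from 7.15 to 8.30 without each library. Depth limits SERPINB5 in MDA-MB-468 and A2ML1 in both lines.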
